A study of Mus musculus with 22 samples.

Results

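Embryonic germ (EG) lines derived directly in 2i medium were compared with EG lines grown in fetal calf serum (FCS), across all genes on Affymetrix mouse gene arrays. EG cells are pluripotent lines that grow out of primordial germ cells, the embryonic precursors of eggs and sperm. The comparison took the 4 arrays labelled EG 2i and the 4 labelled EG FCS, so 8 of the 22 arrays of the series, chosen by their labels alone. It covered 19938 genes, each read by 1 probe set. The EG lines came from embryos at day 8.5. The EG 2i lines were kept on laminin in N2B27 medium with leukaemia inhibitory factor (LIF), PD0325901, which inhibits MEK, and CHIR99021, which inhibits GSK3. The EG FCS lines were kept on a feeder layer of mouse embryonic fibroblasts in serum medium with LIF. Medium, inhibitors and substrate therefore changed together and cannot be told apart. All lines, in every group, had a mixed background by their strain label, a cross of 129SvEv with Oct4-delta-PE-GFP transgenic mice, whose transgene is a green fluorescent reporter of Oct4. EG 2i lines 1 to 3 were female and line 4 was male, while EG FCS line 1 was female and lines 2 to 4 were male. The other arrays held 4 EG lines moved from FCS to 2i after 48 hours, 5 embryonic stem (ES) lines in 2i and 5 ES lines in FCS. The cell-type label reads EGCs on the ES arrays too, so ES arrays were recognised by title and source name. Each array is 1 separately labelled line. Whether lines came from separate cultures is not said further, so p-values reflect the spread among these lines only.

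MEK is the kinase that activates ERK, the last step of a cascade that relays signals from fibroblast growth factors (FGFs) and serum. ERK activity switches on fast-acting transcription factors and its own inhibitors, and in mouse pluripotent cells it primes the cells to differentiate. GSK3 marks beta-catenin for destruction, so blocking it mimics a Wnt signal, and LIF acts through the transcription factor STAT3.

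Levels are log2 RMA values, and values of single lines are given in the order of lines 1 to 4. A log2 change is EG 2i minus EG FCS from limma, fitted over all 22 arrays with terms for sex and batch, so it can depart slightly from the difference of the means. It is given with its standard error (SE). Calls were made where limma's p, adjusted over all 19938 genes by the Benjamini-Hochberg method, was under 0.05, and "rose" or "fell" is used of called genes only. The highest value of the Y-linked gene Eif2s3y in any female line, 4.88, served as the background level.

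All 8 arrays expressed the genes that mark pluripotent cells. Pou5f1 lay between 11.4 and 11.7, Sox2 between 11.5 and 11.8, Nanog between 11.4 and 12.6 and Sall4 between 9.41 and 9.83. Arrays correlated at 0.984 to 0.994 within EG 2i, 0.988 to 0.995 within EG FCS and 0.956 to 0.974 between the cultures. Along the first principal component (63.7% of the variance) the EG 2i lines lay between 20.6 and 36.7 and the EG FCS lines between −34.0 and −23.6. Eif2s3y fitted the labelled sex on every array. No pair of arrays was identical, and all 8 belonged to batch 1.

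Of the 19938 genes, 4764 were called (23.9%): 2274 rose (11.4%) and 2490 fell (12.5%) in EG 2i lines. The change reached 2-fold for 316 genes that rose and 315 that fell (1.58% each), 4-fold for 34 and 43, and 8-fold for 2 and 18. The largest changes were thus mostly losses in 2i. In 3846 of the called genes no EG 2i line overlapped any EG FCS line, and 24.2% of all genes had groups without overlap. The median log2 change of all genes was 0.01. In 38 called genes every EG 2i line was above background and every EG FCS line at or below it, and in 39 genes this was the other way round. Because the sexes were unequal, each change was also computed within female lines and within male lines, where 1 of the cultures has 1 line only. Of the called genes 99.9% had the same sign in both sexes, against 70.2% of all genes. Calling already favours genes of 1 sign, so this is a description and no test.

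The largest rise was in Crxos, a homeobox gene of the oocyte and early embryo. Crxos stood at 8.23, 7.95, 8.19 and 9.15 in EG 2i lines, against 4.75, 4.78, 5.39 and 5.24 in EG FCS lines. The groups were far apart, with lines 1 and 2 in FCS below background. The log2 change was 3.55 ± 0.34 (SE, n = 4 each, 11.7-fold, limma adjusted p = 4.89e-07). Aqp3, a channel for water and glycerol, followed at 9.65, 10.93, 10.66 and 10.17 in EG 2i, against 6.98, 6.43, 6.98 and 7.42 in EG FCS (9.29-fold, adjusted p = 7.73e-06). Spic, an ETS-family transcription factor, stood at 7.35, 8.87, 8.56 and 8.27 in EG 2i, against 5.70, 5.82, 5.99 and 5.60 in EG FCS (5.19-fold, adjusted p = 4.96e-06). Line 1 was the lowest of the 2i lines for both Aqp3 and Spic. The other genes among the 15 largest rises changed by 4.76- to 7.95-fold. They were the betaine methyltransferase Bhmt, the aspartoacylase Aspa, the fatty acid enzymes Scd1 and Elovl7, the germ cell RNA-binding gene Dazl, the autophagy receptor gene Calcoco2, the epithelial ETS factor Elf3, the stress-response gene Nupr1, the ribosomal protein paralog Rpl10l, the deaminase-family gene Apobec2, Ppp1r14d and Plekhb2.

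The largest fall was in Acta2, the smooth muscle actin. Acta2 stood at 5.09, 5.07, 4.81 and 5.19 in EG 2i lines, near background, against 9.32, 8.59, 9.80 and 10.38 in EG FCS lines. The log2 change was −4.50 ± 0.31 (SE, 22.6-fold, adjusted p = 9.65e-09). Dnmt3l, the cofactor of the enzymes that lay down new DNA methylation, stood at 6.58, 6.54, 5.95 and 7.47 in EG 2i, against 11.55, 11.76, 11.01 and 10.89 in EG FCS. That is 21.7-fold lower in 2i (log2 change −4.44 ± 0.53, adjusted p = 6.03e-06). Thbs1, a secreted matrix protein, stood at 5.33, 5.85, 5.27 and 5.30 in EG 2i, against 9.56, 8.47, 9.73 and 10.46 in EG FCS (18.96-fold, adjusted p = 1.73e-07). Enpp3, a surface nucleotide hydrolase, fell 16.7-fold and Slc7a7, an amino acid transporter subunit, 13.1-fold. The other genes among the 15 largest falls changed by 9.84- to 16.6-fold. They were the Nodal inhibitor Lefty1, the imprinted gene Peg10, the connexin gene Gja1, the hormone precursor gene Trh, the ERK-pathway genes Dusp6, Fos and Fosb, the actin-binding gene Cnn2, the RNA-binding gene Lin28a and the splicing regulator gene Esrp1. These 30 genes were picked among called genes whose groups do not overlap, so the missing overlap is no finding.

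**Figure D1:**
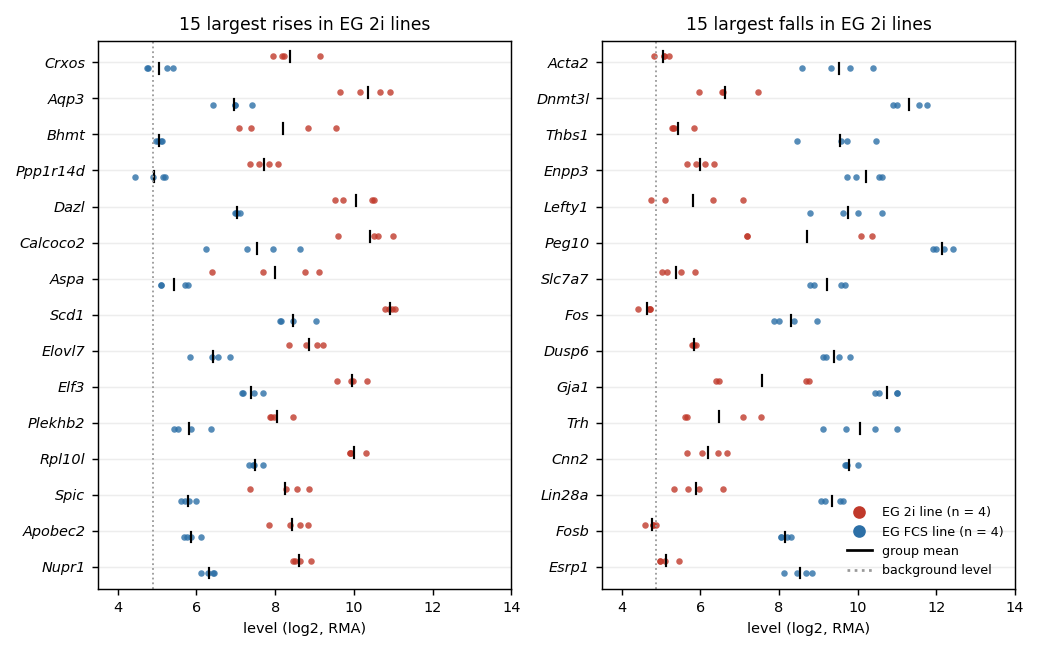
Levels (log2, RMA) of the 15 largest rises (left) and the 15 largest falls (right) in EG 2i lines. Each point is 1 line, EG 2i in red above EG FCS in blue, the black bar is the group mean (n = 4 each) and the dotted line the background level of 4.88. The genes were picked for groups that do not overlap, and Acta2, Fos and Fosb lie near or below background in every EG 2i line.

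The ERK targets moved together. Of 21 measured genes that ERK is known to induce, 17 fell, 13 of them by 2-fold or more, and none rose, with a median log2 change of −1.36. Over all genes 11.4% rose, 12.5% fell and the median was 0.01. The counts of every list below are to be read beside these shares. Feedback inhibitors were among them. Dusp6, a phosphatase that switches ERK off, stood at 5.90, 5.80, 5.85 and 5.81 in EG 2i, against 9.18, 9.12, 9.53 and 9.79 in EG FCS. The spread among 2i lines was small and the log2 change was −3.62 ± 0.21 (SE, 12.3-fold, adjusted p = 1.58e-09). Spry4, an inhibitor acting upstream of ERK, stood at 5.45, 5.20, 5.50 and 5.08 in EG 2i, against 8.18, 8.14, 7.85 and 8.61 in EG FCS (7.45-fold, adjusted p = 1.58e-09). Dusp4, Dusp5, Spry1, Spry2, Spred1 and Spred2 fell as well, by −0.64 to −2.43 on the log2 scale.

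Immediate early transcription factors, which respond to ERK within minutes, fell as well. Egr1 stood at 4.82, 4.72, 4.82 and 4.79 in EG 2i lines, all below background, against 6.63, 7.03, 6.88 and 7.14 in EG FCS lines (log2 change −2.09 ± 0.10, adjusted p = 3.44e-10). Fos stood at 4.42, 4.71, 4.71 and 4.71 in EG 2i, against 7.86, 8.0, 8.38 and 8.97 in EG FCS, which is 12.3-fold lower in 2i (adjusted p = 3.85e-07). Fosb reached at most 4.88 in EG 2i and at least 8.05 in EG FCS (10.2-fold, adjusted p = 1.64e-09). A fold against lines at background is held down by that floor. Myc, a driver of growth and of ribosome production, stood at 5.73, 5.51, 5.44 and 5.57 in EG 2i, against 8.56, 8.58, 8.59 and 8.51 in EG FCS. The lines of each culture were nearly alike and the log2 change of Myc was −3.02 ± 0.18 (8.10-fold, adjusted p = 2.3e-09). The ETS factors differed among themselves. Etv4 stood at 5.62, 6.21, 7.12 and 6.49 in EG 2i, against 7.83, 8.52, 8.33 and 8.23 in EG FCS (adjusted p = 0.000663), whereas Etv5 had a log2 change of 0.08 (adjusted p = 0.66). The cyclin gene Ccnd1, also a target of ERK, had a log2 change of −0.25 (adjusted p = 0.306). Dusp1 and Fosl1 were the other 2 that were not called.

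Of 13 FGF ligand and receptor genes 6 fell and none rose (median −0.16). Fgf17, a ligand, stood at 5.81, 5.15, 5.40 and 6.19 in EG 2i, against 7.49, 7.65, 7.59 and 7.68 in EG FCS (3.52-fold, adjusted p = 5.92e-06). The receptor Fgfr2 stood at 5.55, 5.37, 5.47 and 5.52 in EG 2i, against 7.28, 6.78, 6.27 and 6.47 in EG FCS (2.61-fold, adjusted p = 3.95e-05). Fgf15 was uneven in serum: 5.76, 5.24, 5.62 and 5.29 in EG 2i, against 8.22, 8.25, 6.09 and 6.20 in EG FCS (3.58-fold, adjusted p = 0.00384). Fgf4, the main FGF of pluripotent cells, and Fgfr1 were not called, with log2 changes of 0.21 and 0.12.

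Among Nodal pathway genes 5 of 13 fell and 1 rose (median −0.42). Nodal is a TGF-beta family signal, and Lefty1 and Lefty2 are its secreted inhibitors and targets. Lefty1 stood at 7.08, 4.74, 5.10 and 6.33 in EG 2i, against 10.61, 10.01, 8.78 and 9.64 in EG FCS (log2 change −4.06 ± 0.74, 16.6-fold, adjusted p = 0.000442). EG 2i lines 1 and 4 were well above lines 2 and 3. No line reached the FCS range, but Lefty1 was picked among genes without overlap. Lefty2 followed the same order of 2i lines, at 7.99, 6.47, 6.61 and 7.24, against 8.98, 8.35, 8.24 and 9.14 in EG FCS (3.80-fold, adjusted p = 0.00785). The co-receptor Tdgf1 fell by 0.63 on the log2 scale (adjusted p = 0.000734), while Nodal itself had a log2 change of −0.09 (adjusted p = 0.658).

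Of 10 BMP pathway genes 5 fell and none rose (median −0.45). The ligand Bmp4 stood at 6.45, 6.37, 5.85 and 6.53 in EG 2i, against 7.48, 7.87, 9.12 and 8.92 in EG FCS (3.90-fold, adjusted p = 0.000157). Id1 and Id2, inhibitors of helix-loop-helix factors and classic BMP targets, fell 2.08-fold (adjusted p = 1.04e-05) and 3.57-fold (adjusted p = 3.93e-05). In the LIF pathway 4 of 12 genes fell and 2 rose. Socs3, the feedback inhibitor induced by STAT3, stood at 6.27, 6.36, 6.16 and 6.18 in EG 2i, against 7.49, 7.16, 7.62 and 7.72 in EG FCS (2.34-fold, adjusted p = 0.000258). Junb and Pim3 fell 1.96- and 1.97-fold.

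Wnt targets were mixed, with 3 of 12 genes higher and 1 lower in EG 2i (median 0.15). Notum, a secreted Wnt inhibitor induced by Wnt itself, stood at 7.86, 7.55, 7.77 and 8.24 in EG 2i, against 6.38, 6.40, 6.09 and 5.94 in EG FCS (3.02-fold, adjusted p = 0.000193). Cdx1 rose 2.19-fold (adjusted p = 0.000463). Axin2, the usual readout of beta-catenin, stood at 7.78, 7.40, 7.10 and 7.16 in EG 2i, against 6.06, 6.34, 6.46 and 6.62 in EG FCS (2.07-fold, adjusted p = 0.0112). Without EG FCS line 1 Axin2 was not called (adjusted p = 0.0619). Lef1, a partner of beta-catenin and itself a target, went the other way, at 6.47, 6.16, 6.30 and 6.17 in EG 2i, against 8.49, 8.69, 7.15 and 6.90 in EG FCS. Its high FCS values lay in lines 1 and 2 (2.73-fold lower in 2i, adjusted p = 0.0044, and 0.0522 without EG FCS line 1). Of 14 Notch pathway genes 2 rose and 4 fell, with 2 falls without EG FCS line 1. Hes1, a Notch target and repressor, rose 2.48-fold (adjusted p = 6.14e-05), and the ligand gene Dll1 fell 3.58-fold (adjusted p = 0.000145), with FCS lines 1 and 2 at 7.26 and 7.33 and lines 3 and 4 at 5.73 and 5.88.

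**Figure D2:**
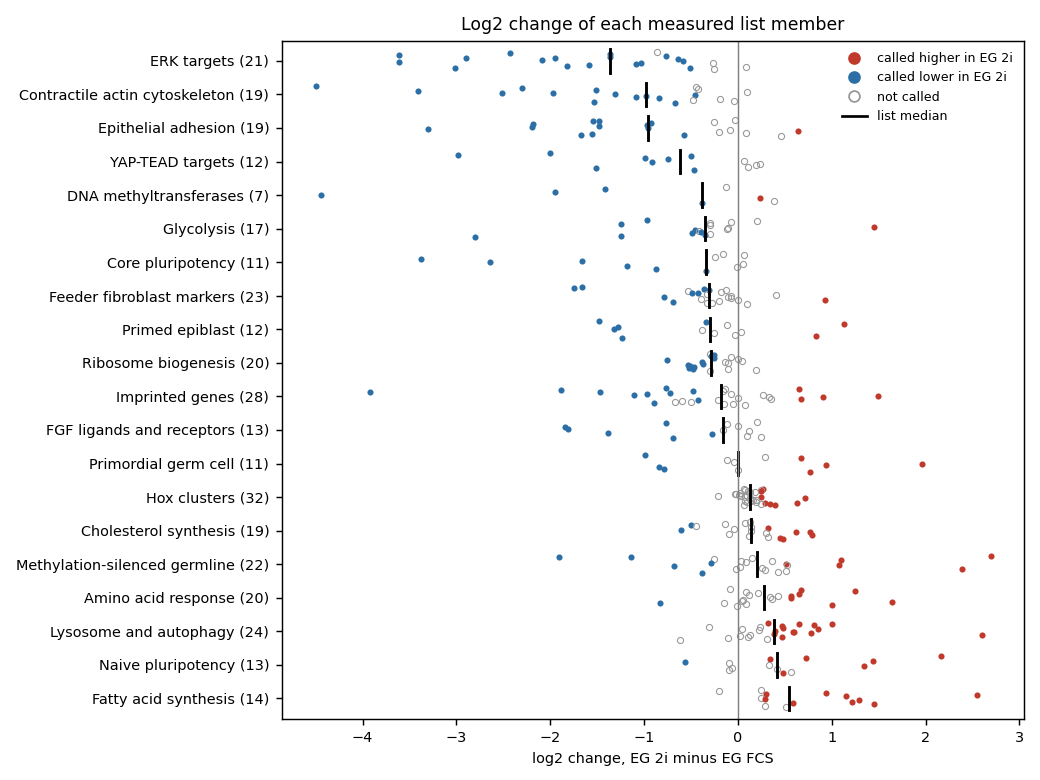
Log2 change (EG 2i minus EG FCS) of each measured member of 20 gene lists, ordered by list median from lowest to highest, with the number measured in brackets. Filled red points were called higher in EG 2i, filled blue points called lower, open points were not called, and the black bar is the median. ERK targets (median −1.36), contractile genes (−0.98) and epithelial adhesion genes (−0.96) lie lowest, and fatty acid synthesis (0.55) highest.

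Genes of the contractile actin cytoskeleton fell as well. Of 19 measured genes 13 fell, 9 of them by 2-fold or more, and none rose (median −0.98). Besides Acta2, Myl9, a myosin light chain gene, stood at 5.14, 5.14, 5.02 and 5.42 in EG 2i, against 7.86, 7.45, 7.79 and 7.79 in EG FCS (5.71-fold, adjusted p = 3.73e-07). Cnn2, an actin-binding calponin, stood at 6.67, 6.03, 5.65 and 6.45 in EG 2i, against 9.72, 9.67, 10.01 and 9.69 in EG FCS (10.7-fold, adjusted p = 7.84e-09). Tagln, another actin-binding gene, was below background in every EG 2i line and stood at 7.07, 5.99, 6.79 and 7.43 in EG FCS (adjusted p = 1.94e-06). Srf, the transcription factor that drives such genes, stood at 7.10, 7.51, 7.22 and 7.15 in EG 2i, against 8.90, 8.93, 8.61 and 8.48 in EG FCS (2.89-fold, adjusted p = 7.25e-08). Cnn3 and Actn1, from the same list, were not called, with log2 changes of 0.10 and −0.19. Of 12 targets of the mechanically regulated factors YAP and TEAD, 8 fell and none rose (median −0.62). Ccn1, a matrix signalling protein, stood at 6.74, 8.31, 8.06 and 6.95 in EG 2i, against 9.98, 9.61, 10.70 and 10.86 in EG FCS (7.92-fold, adjusted p = 1.2e-05). Ccn2 fell 4.00-fold (adjusted p = 1.98e-05).

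SRF binds a sequence called the CArG box, 2 cytosines, 6 bases of A or T and 2 guanines. A match on 1 strand is also a match on the other, though its letters can differ. In RefSeq promoter windows (GRCm38.p6, 250 bases before to 50 after each start) the motif stood in 4 of the 12 fallen contractile genes that had a window (33.3%), namely Cnn2, Myl9, Srf and Vcl. It stood in none of the 5 contractile genes not called that had a window and in 1.63% of all genes tested that had one. Outside the contractile list it also stood in 2 of the 10 fallen ERK targets with a window (20.0%, Dusp5 and Egr2) and in 1 of the 7 lysosome genes not called (14.3%, Tfe3). The upstream 250 bases of 2 of them are shown because their levels are given above, with the CArG box in capitals. A match describes the letters and does not show binding.
Cnn2, chr10:79988350-79988599, plus strand: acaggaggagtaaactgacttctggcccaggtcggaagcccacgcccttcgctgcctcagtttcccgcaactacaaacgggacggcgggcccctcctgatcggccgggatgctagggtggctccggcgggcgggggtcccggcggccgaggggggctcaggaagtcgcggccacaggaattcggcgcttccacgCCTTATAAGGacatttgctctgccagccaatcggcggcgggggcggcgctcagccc
Myl9, chr2:156775214-156775463, plus strand: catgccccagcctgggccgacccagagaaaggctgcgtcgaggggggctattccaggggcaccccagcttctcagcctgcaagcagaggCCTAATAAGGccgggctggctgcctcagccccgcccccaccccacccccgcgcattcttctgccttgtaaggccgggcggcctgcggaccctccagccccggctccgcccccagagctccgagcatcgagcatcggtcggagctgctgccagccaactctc

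Fibroblasts also express contractile and matrix genes, and only the FCS cultures had a fibroblast layer. Of 23 measured feeder fibroblast markers 8 fell and 1 rose (median −0.31), with 5 falls without EG 2i line 3. The mean level of the list was 5.71 to 5.78 in EG 2i lines and 5.82 to 6.31 in EG FCS lines. Col1a1, a collagen chain of fibroblasts, stood at 5.31, 5.50, 5.46 and 5.60 in EG 2i, against 7.03, 6.37, 7.20 and 7.63 in EG FCS (3.17-fold, adjusted p = 2.6e-05). Col1a2 behaved the same way (3.35-fold, adjusted p = 8.49e-05). The fibroblast marker Lum was below background in all 8 lines, Postn in all EG 2i lines and 2 of the EG FCS lines, and Twist1 and Vim were not called. Among FCS lines, Col1a1, Col1a2, Acta2, Thbs1 and Tagln were each lowest in line 2 and highest in line 4, and so was the list mean. Cnn2, Myl9 and Srf did not follow that order, and the fibroblast markers Col3a1, Thy1, Lum and Twist2 were lowest in line 1. The marker Pdgfrb was not called, with a higher mean in EG 2i (5.46) than in EG FCS (5.16). In bulk RNA, fewer cells of a type and less RNA per cell cannot be told apart, and the part of feeder cells in these falls was not tested.

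Most epithelial genes fell too. Of 19 measured genes of epithelial adhesion 12 fell and 1 rose (median −0.96), 8 of the falls by 2-fold or more. Esrp1, which directs epithelial splicing, stood at 5.45, 4.98, 4.97 and 5.11 in EG 2i, against 8.85, 8.67, 8.45 and 8.13 in EG FCS (log2 change −3.30 ± 0.18, 9.84-fold, adjusted p = 1.09e-09). Epcam, a surface adhesion molecule, stood at 8.02, 7.81, 7.85 and 7.73 in EG 2i, against 9.57, 9.73, 9.43 and 9.34 in EG FCS (2.92-fold, adjusted p = 6.17e-07). The claudin gene Cldn6 fell 4.53-fold (adjusted p = 6.32e-05), the keratin gene Krt18 4.57-fold (adjusted p = 0.000605) and the epithelial transcription factor gene Grhl2 3.18-fold (adjusted p = 8.44e-06). Cdh1, which encodes E-cadherin, was not called, with a log2 change of −0.03 (adjusted p = 0.86). Of 12 genes of mesenchymal transition Zeb1 rose and Zeb2 fell, the call of Zeb2 being lost without EG 2i line 2 or 3 or EG FCS line 1, 2 or 4. Among 18 laminin and integrin genes 4 fell and 3 rose, with 1 rise without EG 2i line 4 or EG FCS line 1. Lamb1, a laminin chain, stood at 6.26, 6.32, 5.45 and 6.51 in EG 2i, against 9.29, 8.94, 8.87 and 9.58 in EG FCS (6.94-fold, adjusted p = 1.13e-07), while Lamc1, its partner chain, had a log2 change of −0.15 (adjusted p = 0.511).

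The central pluripotency factors were not called, but several genes grouped with them fell. Pou5f1, the central pluripotency factor, stood at 11.38, 11.59, 11.66 and 11.49 in EG 2i, against 11.64, 11.65, 11.64 and 11.70 in EG FCS (log2 change −0.16, adjusted p = 0.0941). Sox2 had a log2 change of 0.06 (adjusted p = 0.636). Of 11 measured genes 6 fell and none rose (median −0.34). Lin28a, a blocker of let-7 maturation, stood at 6.58, 5.34, 5.69 and 5.95 in EG 2i, against 9.56, 9.62, 9.15 and 9.06 in EG FCS (10.4-fold, adjusted p = 9.21e-08). Its paralog Lin28b fell 3.17-fold (adjusted p = 3.08e-06). Utf1, a chromatin-bound factor of pluripotent cells, stood at 9.22, 8.86, 8.75 and 9.50 in EG 2i, against 11.80, 12.02, 11.88 and 11.65 in EG FCS (6.26-fold, adjusted p = 1.58e-09).

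Of 13 naive pluripotency genes, the factors of the earliest epiblast, 6 rose and 1 fell (median 0.41). Prdm14, a repressor with a role in germ cells and naive cells, stood at 8.83, 9.69, 9.16 and 8.69 in EG 2i, against 6.27, 6.42, 6.88 and 7.07 in EG FCS (log2 change 2.17 ± 0.24, 4.49-fold, adjusted p = 3.13e-06). Nanog stood at 12.26, 12.64, 12.60 and 12.51 in EG 2i, against 11.35, 11.40, 12.13 and 12.16 in EG FCS (1.66-fold, adjusted p = 0.0043). Tfcp2l1 stood at 10.84, 11.63, 11.50 and 11.59 in EG 2i, against 8.97, 9.43, 10.84 and 11.02 in EG FCS, where the groups overlapped (2.71-fold, adjusted p = 0.00719). Tbx3 stood at 9.12, 9.88, 9.56 and 9.38 in EG 2i, against 7.45, 7.35, 8.49 and 8.79 in EG FCS (2.55-fold, adjusted p = 0.00543). The FCS lines were thus unlike each other, with lines 1 and 2 far below lines 3 and 4. Without EG FCS line 1 none of Nanog (adjusted p = 0.052), Tfcp2l1 (0.0814) and Tbx3 (0.0611) was called, whereas Prdm14 was called in every alternative. Esrrb was called narrowly (1.26-fold, adjusted p = 0.0481), with overlapping groups. Its call was lost without any of EG 2i lines 1 to 4 (0.0554 to 0.0964) and without EG FCS line 1 (0.326) or 2 (0.143), and also without the sex term (0.0706) or the batch term (0.0509). Without EG FCS line 1 thus 2 of the 13 naive genes rose, against 6 with it. Klf4 was not called (adjusted p = 0.786), and Klf2, a further naive factor, fell 1.48-fold (adjusted p = 0.000244).

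The mean level of the 13 naive genes was 9.74, 10.08, 9.99 and 9.88 in EG 2i lines, against 8.98, 9.04, 9.66 and 9.75 in EG FCS lines. The 12 primed genes, which mark the later epiblast, gave the mirror image in serum, at 6.61, 6.56, 6.65 and 6.48 in EG 2i, against 7.22, 7.10, 6.65 and 6.58 in EG FCS. FCS lines 3 and 4 thus lay close to the 2i lines on both lists, and lines 1 and 2 lay apart. The third principal component separated the FCS lines in the same way, at −10.7 and −13.9 for lines 1 and 2 and 14 and 16.9 for lines 3 and 4. The labelled sexes do not divide in this way, since line 1 was female and line 2 male. The cause of the split among FCS lines was not tested. Of the primed list 5 genes fell and 2 rose (median −0.30). Otx2, a driver of the primed state, stood at 5.38, 6.34, 6.51 and 5.73 in EG 2i, against 7.61, 7.77, 6.71 and 6.54 in EG FCS (2.78-fold, adjusted p = 0.00728). Sox4 and Sox11 fell 2.43-fold (adjusted p = 8.87e-06) and 2.50-fold (adjusted p = 3.35e-05). Zic2 rose, at 9.01, 8.72, 9.02 and 8.69 in EG 2i, against 8.38, 8.01, 7.19 and 7.02 in EG FCS (2.20-fold, adjusted p = 0.0017).

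**Figure D3:**
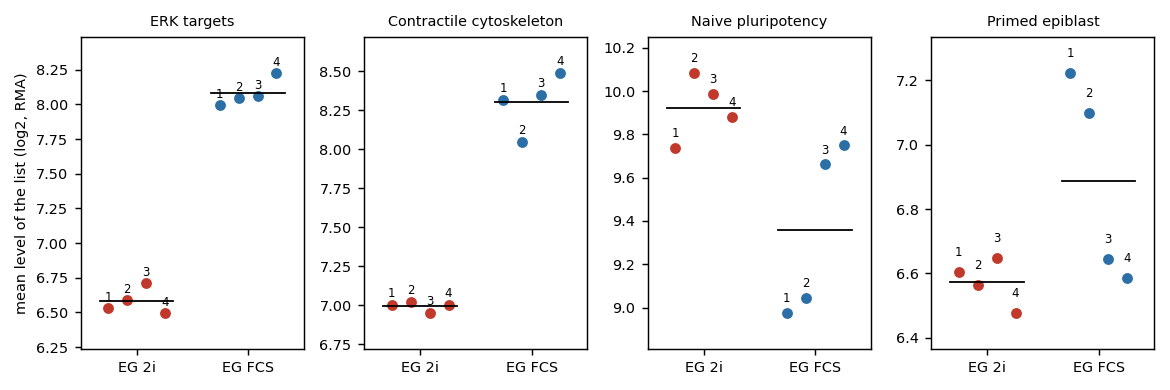
Mean level (log2, RMA) of the measured members of 4 lists in each line, EG 2i in red left of EG FCS in blue, with the line number beside each point and the group mean as a bar. The cultures are far apart for ERK targets and contractile genes, while for naive and primed genes EG FCS lines 3 and 4 lie nearer to the EG 2i lines than EG FCS lines 1 and 2.

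The genes that write DNA methylation anew fell. Of 7 genes of the methyltransferase list 4 fell and 1 rose (median −0.38). Dnmt3b, a de novo methyltransferase, stood at 6.90, 6.69, 7.03 and 6.63 in EG 2i, against 9.29, 9.24, 8.35 and 8.09 in EG FCS (3.86-fold, adjusted p = 1.81e-05). Dnmt3a, the other one, stood at 6.97, 6.29, 6.46 and 6.60 in EG 2i, against 8.76, 8.80, 7.38 and 7.47 in EG FCS (2.67-fold, adjusted p = 0.00279). Again FCS lines 1 and 2 were the higher, also for Dnmt3l. Dnmt1, the maintenance enzyme, had a log2 change of −0.12 (adjusted p = 0.266), and its cofactor Uhrf1 rose 1.17-fold (adjusted p = 0.0384), a call lost without EG 2i line 1 (0.102) or 4 (0.114) and without EG FCS lines 2 (0.0725), 3 (0.0792) or 4 (0.0707). Of 13 genes of active demethylation 3 rose and 6 fell. Tet1, an oxidase of methylcytosine, stood at 10.69, 10.73, 10.84 and 10.85 in EG 2i, against 11.31, 11.60, 11.45 and 11.56 in EG FCS (1.65-fold, adjusted p = 0.000118). Tet2 had a log2 change of 0.56 with overlapping groups (adjusted p = 0.138, and 0.0142 without EG 2i line 1, where it was called). Gadd45g, a stress-response gene linked to demethylation, was below background in every EG 2i line and stood at 8.73, 8.54, 7.22 and 7.06 in EG FCS (8.91-fold, adjusted p = 7.12e-06).

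Germline genes that DNA methylation normally silences moved in both directions, 5 up and 5 down of 22 (median 0.20). Dazl, an RNA-binding gene needed for germ cells, stood at 9.53, 10.51, 10.47 and 9.73 in EG 2i, against 6.98, 7.11, 7.0 and 7.03 in EG FCS (6.47-fold, adjusted p = 1.16e-06). Hormad1, a meiotic chromosome axis gene, rose 2.12-fold (adjusted p = 0.005) and the testis kinase gene Stk31 2.14-fold (adjusted p = 0.000231). Mael, of the pathway that guards germ cells against transposons, fell 3.76-fold (adjusted p = 2.49e-05), and the germ cell helicase gene Ddx4 fell 2.20-fold (adjusted p = 0.00278). Among genes of primordial germ cells, 4 of 11 rose and 3 fell in EG 2i, with 2 rises without EG 2i line 4 or EG FCS line 1. Kit, the receptor for stem cell factor, stood at 10.46, 10.37, 9.95 and 10.70 in EG 2i, against 7.82, 8.18, 9.16 and 9.10 in EG FCS (3.90-fold, adjusted p = 2.33e-05). Prdm1, the regulator that specifies germ cells, stood at 5.59, 5.15, 5.18 and 5.66 in EG 2i, against 6.33, 6.29, 6.60 and 6.53 in EG FCS (1.99-fold lower in 2i, adjusted p = 0.000286).

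Of 28 imprinted genes, which are expressed from 1 parental copy, 10 fell and 4 rose (median −0.18). Peg10 varied most within 2i, at 7.18, 10.35, 10.09 and 7.19 in EG 2i, against 11.99, 12.43, 12.20 and 11.92 in EG FCS (15.2-fold, adjusted p = 0.000895). Its neighbour Sgce fell by 1.47 on the log2 scale (adjusted p = 0.00102). Peg3 was even within each culture, at 7.42, 7.51, 7.97 and 7.66 in EG 2i, against 9.52, 9.53, 9.41 and 9.33 in EG FCS (3.69-fold, adjusted p = 9.59e-08). Plagl1, an imprinted transcription factor gene, rose 2.82-fold (adjusted p = 0.00647), a call lost without EG 2i line 4 (0.0532) or EG FCS line 1 (0.0674). Of 11 genes of Polycomb complex 2, which deposits a repressive histone mark, 3 rose and 3 fell, none by 2-fold.

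Of 17 primitive endoderm genes 6 fell and none rose (median −0.33). Those that fell were the matrix genes Lamb1, Col4a1 and Col4a2 and the endocytic genes Dab2, Cubn and Lrp2 (3.34-fold, adjusted p = 2.42e-05), while the regulators Gata4, Gata6 and Sox17 were not called. Of 12 trophoblast genes only the keratin genes Krt8 and Krt18 fell. Krt8 was called barely (adjusted p = 0.0459) and kept its call only when EG FCS line 2 was the line left out (0.0532 to 0.141 without any other line). Of 11 neural genes 2 fell and 1, Sox21, rose (adjusted p = 0.0449), a call lost without EG 2i line 2, 3 or 4 or EG FCS line 1, 2 or 4 (0.0754 to 0.203). Of 10 primitive streak and mesoderm genes 1 rose, and 2 without EG 2i line 2 or 4. That gene was Gsc, a homeobox gene, at 6.20, 7.29, 7.22 and 6.71 in EG 2i, against 5.37, 5.29, 5.66 and 5.61 in EG FCS (2.36-fold, adjusted p = 0.000209). Of 32 Hox genes, the homeobox genes of body position, 8 rose and none fell, all by less than 2-fold (median 0.13), and 5 rose without EG 2i line 4. The clearest was Hoxc4, at 5.71, 5.73, 6.01 and 5.62 in EG 2i, against 5.04, 5.12, 4.91 and 5.03 in EG FCS (1.64-fold, adjusted p = 3.17e-06). These levels lie little above background. Over all genes 23.9% were called, 11.4% higher and 12.5% lower, so the small counts of these lineage and Hox lists are descriptions only.

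Of 14 fatty acid synthesis genes 9 rose and none fell (median 0.55, against 11.4% of all genes higher). Scd1, which puts a double bond into fatty acids, stood at 10.98, 10.80, 10.89 and 11.05 in EG 2i, against 8.45, 9.03, 8.16 and 8.14 in EG FCS (log2 change 2.55 ± 0.17, 5.84-fold, adjusted p = 6.03e-09). Scd2 rose 2.22-fold (adjusted p = 2.62e-07), and the desaturase genes Fads1 and Fads2 rose 2.44-fold (adjusted p = 2.32e-07) and 2.33-fold (adjusted p = 1.7e-05). Me1, which makes reducing power for lipid synthesis, rose 2.74-fold (adjusted p = 1.64e-05). The chain-building enzymes Fasn and Acaca were not called, with log2 changes of 0.25 and −0.20. Of 19 cholesterol synthesis genes 6 rose and 2 fell, none by 2-fold, and 7 of the 8 fits that left out a line gave 0 or 1 fall.

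Of 24 lysosome and autophagy genes 14 rose and none fell (median 0.39), all but Calcoco2 by 2-fold or less. Without EG FCS line 1, 9 rose. Calcoco2 stood at 9.59, 10.99, 10.61 and 10.50 in EG 2i, against 7.29, 6.23, 7.95 and 8.64 in EG FCS (6.06-fold, adjusted p = 0.00448). Lamp2, a lysosomal membrane protein, stood at 9.46, 10.11, 9.92 and 9.58 in EG 2i, against 8.53, 8.35, 8.89 and 8.91 in EG FCS (2.00-fold, adjusted p = 8.64e-05). The proteases Ctsa and Tpp1 rose 1.57-fold (adjusted p = 1.45e-05) and 1.71-fold (adjusted p = 7.09e-06). Lamp1 rose 1.25-fold (adjusted p = 0.0119), with lines 2 and 3 at 9.89 and 9.81 and lines 1 and 4 at 9.46 and 9.38 in EG 2i, against 9.15 to 9.34 in EG FCS. Tfeb and Tfe3, factors that drive lysosome genes, were not called.

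The TFEB family binds a motif built around CACGTG, which reads the same on both strands. In the same RefSeq windows CACGTG stood in 5 of the 12 lysosome genes that rose and had a window (41.7%), namely Ctsa, Ctsd, Gla, Lamp1 and Mcoln1. The call of Lamp1 was lost without EG FCS line 1 (adjusted p = 0.0924), that of Gla without EG 2i line 2 (0.0636) or 3 (0.0649) or EG FCS line 1 (0.0991) or 3 (0.0551), and all 3 calls of Lamp1, Gla and Ctsd in a fit of the EG 2i and EG FCS arrays alone (0.0961 to 0.164). CACGTG stood in 2 of the 7 lysosome genes with a window that were not called (28.6%) and in 9.50% of all genes tested that had one. Here too a match describes the letters and does not show binding by the TFEB family or any other factor. The upstream 250 bases of 2 of them are shown, with CACGTG in capitals, because Lamp1 carried it 4 times and Ctsa 12 bases before its start.
Lamp1, chr8:13158911-13159160, plus strand: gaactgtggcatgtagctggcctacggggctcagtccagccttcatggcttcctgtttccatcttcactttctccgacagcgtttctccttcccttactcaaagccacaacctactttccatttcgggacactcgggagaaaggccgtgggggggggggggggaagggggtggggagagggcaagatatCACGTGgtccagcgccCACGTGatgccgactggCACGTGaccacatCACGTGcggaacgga
Ctsa, chr2:164833523-164833772, plus strand: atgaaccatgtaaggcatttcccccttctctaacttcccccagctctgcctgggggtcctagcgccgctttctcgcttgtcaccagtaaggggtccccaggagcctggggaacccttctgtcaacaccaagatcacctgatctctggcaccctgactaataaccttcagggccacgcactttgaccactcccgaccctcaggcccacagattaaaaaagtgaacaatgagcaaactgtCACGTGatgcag

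Enzymes of betaine, glycine and cysteine metabolism included some of the largest rises, with 6 of 17 higher and 2 lower (median 0.26). Bhmt, which methylates homocysteine with betaine, stood at 7.38, 9.54, 8.83 and 7.09 in EG 2i, against 5.09, 4.96, 5.03 and 5.12 in EG FCS (7.95-fold, adjusted p = 0.000695). Bhmt2 and Dmgdh, which act on related methyl donors, had the same order among 2i lines and rose 2.96-fold (adjusted p = 0.00432) and 4.24-fold (adjusted p = 0.00306). Gldc, of the glycine cleavage system, fell 2.28-fold (adjusted p = 0.000652). In the amino acid response 7 of 20 genes rose and 1 fell (median 0.28). Asns, which makes asparagine, stood at 12.48, 12.60, 12.52 and 12.54 in EG 2i, against 11.03, 11.10, 11.54 and 11.71 in EG FCS (2.37-fold, adjusted p = 7.09e-06). The arginine and lysine transporter Slc7a1 rose 3.13-fold (adjusted p = 1.45e-07), while Atf4, the factor that drives this response, had a log2 change of −0.08.

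Of 17 glycolysis genes 8 fell and 1 rose (median −0.35), with 5 falls without EG FCS line 1. Pdk1, which keeps pyruvate out of the mitochondrion, stood at 7.13, 6.64, 6.62 and 7.51 in EG 2i, against 9.88, 10.37, 10.19 and 9.71 in EG FCS (6.95-fold, adjusted p = 2.16e-07). The glucose transporter Slc2a1 fell 1.96-fold (adjusted p = 0.000908). The phosphofructokinase isoform Pfkp rose, at 9.81, 9.97, 9.87 and 10.34 in EG 2i, against 8.44, 8.88, 8.63 and 8.27 in EG FCS (2.74-fold, adjusted p = 3.42e-06). Targets of the hypoxia factor HIF were mixed, with 2 of 15 higher and 4 lower. Egln3, a HIF hydroxylase, fell 3.51-fold (adjusted p = 0.00013) and Vegfa, a vascular growth factor, rose 2.36-fold (adjusted p = 0.00111). Of 16 glutathione and NRF2 genes 4 rose and 2 fell. Gss, the last enzyme of glutathione synthesis, stood at 9.27, 9.93, 9.70 and 9.57 in EG 2i, against 7.03, 7.06, 7.89 and 7.86 in EG FCS (4.15-fold, adjusted p = 9.98e-06).

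Of 20 interferon and antigen presentation genes 3 rose and 4 fell. Oas1a, an antiviral enzyme, stood at 7.23, 8.22, 8.24 and 7.01 in EG 2i, against 5.50, 5.16, 5.05 and 4.73 in EG FCS (4.32-fold, adjusted p = 9.54e-07), while Ddx58, which encodes the RNA sensor RIG-I, fell 2.69-fold (adjusted p = 0.000308). Ifit1, Ifit3, Irf7 and Mx1, genes that interferon induces strongly, were not called. Of 13 retinoid pathway genes 2 rose and 4 fell, with 2 falls without EG 2i line 2 or 3 or EG FCS line 1. Of 8 Rhox homeobox genes 1 rose, Rhox10, a call lost without EG 2i line 2 or 3 or EG FCS line 1 or 4, and none of 4 genes of the two-cell-like state was called.

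Of 20 ribosome biogenesis genes 11 fell and none rose, all by less than 2-fold (median −0.29). Nolc1, a nucleolar protein, stood at 9.21, 9.29, 9.20 and 9.07 in EG 2i, against 10.06, 10.17, 9.69 and 9.69 in EG FCS (1.69-fold, adjusted p = 2.46e-05). Of 17 G1 cyclins, kinases and their inhibitors 6 rose and 3 fell, and 5 fell without EG 2i line 1. The falls were Ccne1 (2.42-fold, adjusted p = 7.84e-09), Ccne2 (1.53-fold, adjusted p = 3.25e-05) and Ccnd2 (2.34-fold, adjusted p = 0.000113), cyclins of S-phase entry. Cdkn1b, a brake on these cyclins, rose 1.48-fold (adjusted p = 0.00528, and 0.16 without the sex term) with overlapping groups. Of 14 proliferation genes 4 fell and none rose, with a largest fall of 0.40 on the log2 scale (Mki67). Of 13 p53 targets 4 rose and 1 fell. Of 8 housekeeping genes Actb and Ywhaz fell and none rose, and Ywhaz was not called without EG 2i line 1 or 4 or EG FCS line 2 or 4.

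The arrays also held 296 miRNA genes, of which 258 matched RefSeq hairpins. Of the 296 genes 5 rose and 25 fell, 10.1% in all against 23.9% of all genes, and the median log2 change was −0.02. MiRNAs are short RNAs that repress messages matching their seed, bases 2 to 8. Most of the falls lay in a few clusters. In the Mir17 cluster at chr14:115043671-115044391 all 5 measured genes fell (median −1.11, range −1.36 to −0.76), and in its X-linked relative at chrX:52741693-52742567 all 5 were called lower (median −0.59), although Mir20b stood at background in both cultures. Among the other clusters of 3 or more genes within 10 kb, 2 of 3 fell in each of the Mir23a, Mir106b and let-7 clusters on chromosomes 8, 5 and 13. None was called in the remaining 6, among them the 5 genes of the Mir302 cluster, which marks pluripotent cells, and 29 genes of the imprinted cluster on chromosome 12. The mature sequences (RefSeq, GRCm38.p6) of the 2 related clusters are given with the seed in capitals, because they fall into 4 seed groups that both clusters share in part.
miR-17-5p, chromosome 14: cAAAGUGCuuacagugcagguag
miR-20a-5p, chromosome 14: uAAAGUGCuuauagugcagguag
miR-106a-5p, chromosome X: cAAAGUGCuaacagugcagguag
miR-20b-5p, chromosome X: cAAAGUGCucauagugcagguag
miR-18a-5p, chromosome 14: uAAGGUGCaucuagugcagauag
miR-19a-3p, chromosome 14: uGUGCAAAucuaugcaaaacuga
miR-19b-3p, chromosomes 14 and X: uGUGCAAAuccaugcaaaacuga
miR-92a-3p, chromosome X gene: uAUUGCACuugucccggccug
miR-363-3p, chromosome X: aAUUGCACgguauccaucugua

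Among genes with the seed AAAGUGC, Mir20a stood at 6.06, 6.18, 5.93 and 5.23 in EG 2i, against 7.22, 6.87, 7.01 and 6.63 in EG FCS (2.57-fold, adjusted p = 0.000596). Mir17 stood at 5.56, 5.61, 5.34 and 4.96 in EG 2i, against 6.25, 5.95, 5.99 and 5.69 in EG FCS (1.70-fold, adjusted p = 0.00274). Mir106a was below background in every EG 2i line, so its fold of 1.53 is held down by the floor. Mir20b stood at 4.41, 4.69, 4.46 and 4.45 in EG 2i, against 4.80, 4.89, 4.78 and 4.78 in EG FCS, at or below background in nearly all lines, and no fold is given. Line 4 was the lowest in each culture for the genes on chromosome 14. The cultures did not overlap in any of the 5, though Mir17 was only just apart (5.61 against 5.69). Of all genes 12.8% had groups without overlap and lower in 2i. The 5 genes lie within 721 bases, so they need not be separate readings. Mir18, of the seed AAGGUGC, fell 2.29-fold (adjusted p = 2.5e-05). With the seed GUGCAAA, Mir19a fell 2.15-fold (adjusted p = 3.47e-05), Mir19b-1 2.13-fold (adjusted p = 0.00194) and Mir19b-2 1.51-fold (adjusted p = 0.00102). With the seed AUUGCAC, Mir363 fell 2.09-fold (adjusted p = 0.00121). Mir92-2 was called narrowly (1.22-fold, adjusted p = 0.0387) and lost its call without EG 2i line 1 (0.0932), 3 (0.0832) or 4 (0.0502), or EG FCS line 1 (0.168) or 3 (0.109). The host transcript Mir17hg stood at 7.12, 7.09, 6.65 and 6.52 in EG 2i, against 7.93, 7.71, 7.63 and 6.92 in EG FCS (1.84-fold, adjusted p = 0.0015), where line 4 in FCS reached the 2i range. Mir23a and Mir27a fell 2.36- and 2.62-fold. Whether these probe sets read the primary transcript or the mature miRNA was not tested, so no fall of a mature miRNA is shown.

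**Figure D4:**
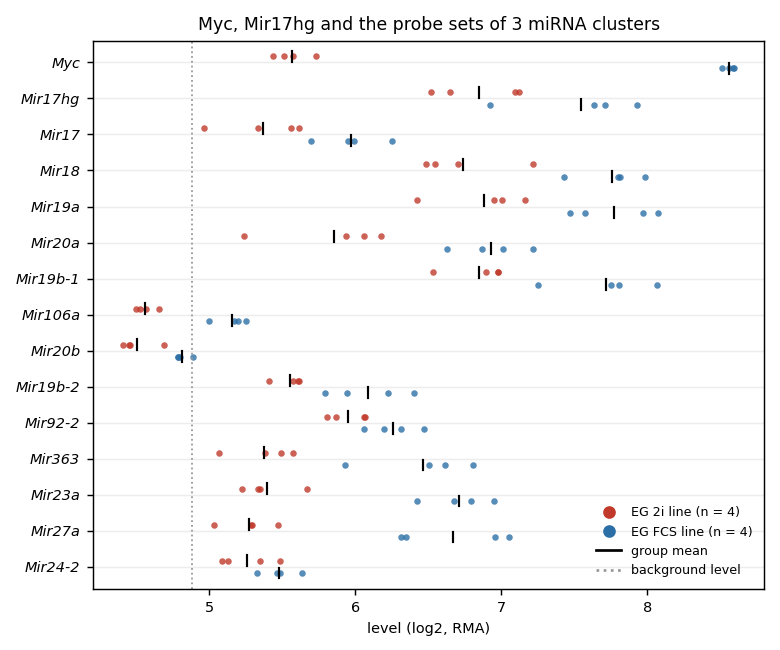
Levels (log2, RMA) of Myc, the host transcript Mir17hg and the genes of the Mir17, Mir106a and Mir23a clusters, EG 2i in red above EG FCS in blue, with group means (n = 4 each) and the background level of 4.88. The change is largest for Myc, and Mir20b lies near or below the background level in both cultures.

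The EG 2i lines themselves were not alike. The second principal component, 12.8% of the variance, put lines 2 and 3 at 16.0 and 15.5 and lines 1 and 4 at −17.1 and −22.2. Lines 1 to 3 were female and line 4 male, so labelled sex does not divide the lines in this way. The genes that follow come from the same arrays and are examples of this order, so they are no test of it. Other named genes, such as Zic2 and Spry4, did not have it. Peg10, the connexin gene Gja1 (6.39, 8.77, 8.68 and 6.47 in EG 2i, against 10.99, 11.01, 10.54 and 10.44 in EG FCS), Ccn1, Bhmt and the stress-response gene Gadd45a (6.93, 8.10, 8.42 and 6.67 in EG 2i, against 9.05, 8.99, 9.14 and 9.11 in EG FCS) were higher in lines 2 and 3, and Lefty1, Lefty2 and Trh (7.54, 5.65, 5.62 and 7.09 in EG 2i, against 10.44, 10.99, 9.70 and 9.12 in EG FCS) were higher in lines 1 and 4. The identifiers of the arrays start in 2 different ways among the EG arrays, and lines 2 and 3 carry different starts, as do lines 1 and 4. The cause of the split among EG 2i lines was not tested.

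Sex and the X chromosome were examined because 3 of 4 EG 2i lines and 1 of 4 EG FCS lines were female. Sex itself was called for 721 genes (3.62%), 243 of them among the 4764 called for culture. Of 739 X-linked genes 12.3% rose and 9.20% fell, against 11.4% and 12.7% of autosomal genes. Of 5 genes of X inactivation and X dosage 2 fell and none rose. They were Rlim and Klhl13, which fell 1.78-fold (adjusted p = 0.00146) and 1.88-fold (adjusted p = 0.0132) with overlapping groups, and neither was called without the sex term (0.0531 and 0.189).

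ES lines in 2i and FCS are separate arrays and share no control with the EG comparison. Both comparisons came from the same fit, with a shared estimate of the spread and of the sex effect. The EG and ES calls of a gene are therefore not independent, and their overlap is a description. There 31.6% of genes were called, 16.6% higher and 14.9% lower. Of the genes that rose in EG 2i 1613 also rose in ES 2i, 70.9% of the EG list and 48.6% of the ES list, and of those that fell 1638 also fell, 65.8% and 55.0%. Only 25 genes were called in opposite directions. Of the 631 genes that changed 2-fold in EG lines 565 were called in the same direction in ES lines, as were 29 of the 30 largest changes. The exception was Peg10, with a log2 change of −1.57 in ES lines (adjusted p = 0.0785).

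The difference of the EG and ES responses was tested directly and was called for 287 genes (1.44%), 157 of them among the 4764. Without EG 2i line 3 it was called for 123 genes, and without EG FCS line 1, 3 or 4 for 157, 158 and 155. With the replicate number as a block it was called for 82. Cnn2 was the only 1 of the 30 largest changes with a called difference, with a log2 change of −3.41 in EG lines and −2.10 in ES lines (adjusted p = 0.0362). Stra8, a gene of meiotic entry induced by retinoic acid, stood at 7.17, 6.03, 5.83 and 6.37 in EG 2i, against 4.97, 5.13, 5.09 and 5.03 in EG FCS (2.75-fold, adjusted p = 0.000763). In ES lines Stra8 had a log2 change of −0.05 (adjusted p of the difference 0.0471). Peg12, an imprinted gene, rose by 0.67 in EG lines and had a log2 change of −0.20 in ES lines (difference adjusted p = 0.00307). Zic2 changed by 1.14 in EG lines, with −0.38 in ES lines (difference adjusted p = 0.0232). Among genes chosen after their values were seen, Dpp4, a surface peptidase, stood at 8.60, 8.68, 8.82 and 9.25 in EG 2i, against 7.31, 7.48, 6.74 and 7.01 in EG FCS (3.64-fold, adjusted p = 9.09e-05), with −0.39 in ES lines (difference adjusted p = 0.00826). Apela, a peptide hormone gene, stood at 8.16, 7.60, 7.53 and 8.16 in EG 2i, against 9.98, 9.78, 9.87 and 9.80 in EG FCS (3.44-fold lower in 2i, adjusted p = 1.68e-06), with −0.27 in ES lines (difference adjusted p = 0.00776). Rai14, an actin-associated gene, fell by 0.87 in EG lines and had 0.02 in ES lines (difference adjusted p = 0.00155).

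**Figure D5:**
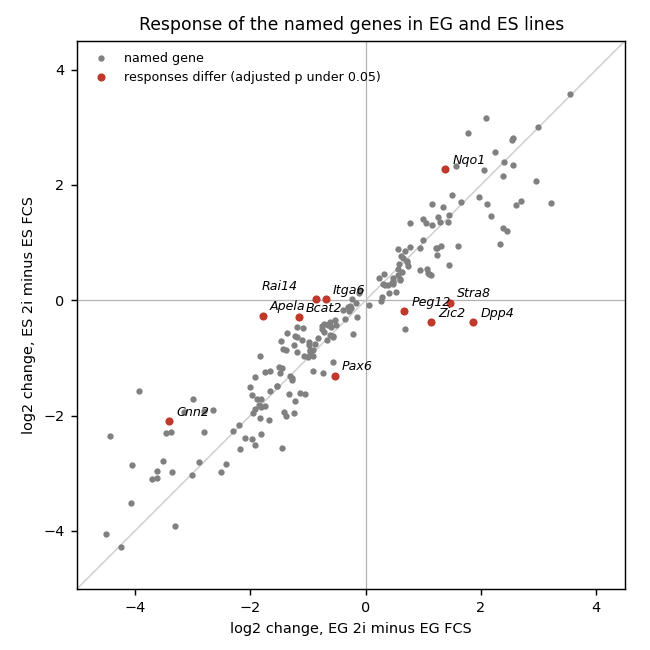
Log2 change of the 201 named genes in EG lines (x axis, EG 2i minus EG FCS) against ES lines (y axis, ES 2i minus ES FCS), with the line of equal change in grey. Red points are the 11 named genes whose responses differ at an adjusted p under 0.05. Among them Dpp4, Itga6, Bcat2, Rai14 and Apela were chosen after their values were seen. Most genes lie along the line, and Dpp4, Stra8, Zic2 and Peg12 lie to the right of it.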

How the data were processed

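The deposited values are log2 expression values, 1 per probe set and array, made by the authors with Affymetrix Expression Console and RMA, per the submitters' processing notes. The notes also name limma, and software versions are not given in the sources used here. In RMA the authors' software corrects background, normalizes by quantiles and summarizes probes. Total RNA was extracted with the Qiagen RNeasy Mini kit and labelled with the Ambion WT Expression kit, per the labels' protocols. Of 28853 probe sets 21789 were listed with 1 gene symbol, 1621 with several and 5443 with none. Each gene was represented by its brightest probe set (mean of the 22 arrays), giving 19938 genes.

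All 22 arrays were fitted with limma 3.58.1 in R 4.3.3 (lmFit, eBayes, terms for group, labelled batch and labelled sex), tested on simulated data. Every adjusted p is limma's, two-sided, with Benjamini-Hochberg adjustment over all genes. Lists are described by counts and medians, with no test. The members, 45 lists (672 of 742 listed genes measured, 7 by synonym) and tests were chosen with earlier results of these data known. Named are the 15 largest rises and 15 largest falls among called genes without overlap, passing over predicted genes, from each list the called members with the lowest adjusted p, at most 3, and 17 fixed genes. Further list members, miRNA genes, and Dpp4, Apela, Rai14, Itga6 and Bcat2 were chosen after their values were seen. Replicate numbers do not pair the lines: the deviations of same-numbered lines correlated at 0.07, −0.09, −0.13 and −0.00. Sequences, names and coordinates are from RefSeq (GRCm38.p6). Figures were drawn with matplotlib 3.10.9 in Python 3.11.15.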

Additional observations from a re-analysis of the deposited data

Results flagged for a closer look

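A line far from the other 3 of its culture appeared in 16 of 402 groups of 4 lines tested. Chance gives about 1 in 20 for independent groups. The groups here belong to the 201 named genes, mostly chosen for called changes, and share the same 8 arrays. Their number therefore cannot be compared with that rate and only describes the far lines. In EG 2i these were line 1 for Fos (4.42, below 4.71 in each other line), Vegfa (7.40, below 8.33 to 8.43), Tfcp2l1 (10.84, below 11.50 to 11.63) and Fbxo15 (10.72, above 10.56 to 10.58). Line 2 stood apart for Rpl10l (10.30, above 9.90 to 9.94), Thbs1 (5.85, above 5.27 to 5.33), Ctsa (9.54, above 9.21 to 9.25) and Mir20b (4.69, above 4.41 to 4.46). Line 4 stood apart for Sox11 (5.56, below 6.30 to 6.32). In EG FCS they were line 1 for Ddx58 (8.01, below 8.58 to 8.61) and Actb (13.39, above 13.31 to 13.32), line 2 for Msmo1 (10.28, above 9.91 to 9.97) and Pcna (12.11, above 12.00 to 12.01), line 3 for Cnn2 (10.01, above 9.67 to 9.72) and Map2 (6.06, above 5.74 to 5.79), and line 4 for F3 (7.58, above 6.95 to 6.99).

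For 11 named genes the EG response minus the ES response was called on the log2 scale: Dpp4 2.25, Zic2 1.51, Stra8 1.5, Peg12 0.87, Pax6 0.77, Itga6 −0.71, Bcat2 −0.87, Rai14 −0.88, Nqo1 −0.89, Cnn2 −1.32 and Apela −1.52. Of these, Dpp4, Itga6, Bcat2, Rai14 and Apela were chosen after their values were seen, so the count of 11 is no test. Over all genes 1.44% were called for this difference. Pax6 and Nqo1 changed in the same direction in both, with the larger change in ES lines. Probe sets without 1 gene of their own were tested apart, and 856 of 7064 were called (12.1%), 356 higher and 500 lower in EG 2i.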

How the results depend on the processing

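Over 20 alternatives, and 1 added after seeing the data (autosomal genes only), the number of called genes ran from 3423 (EG 2i and EG FCS arrays only) to 4869 (no sex term), against 4764. Leaving out 1 line gave 3441 to 4663. All 30 leading genes kept their call throughout, as did 168 of the 195 called named genes. The leading genes were picked for large changes and many others for a low p, so this is no test. Of all 4764 called genes 3203 were also called with EG 2i and EG FCS arrays only, and 3285 without EG FCS line 1. Among lists, in fits added after seeing the data, the counts of fallen ERK targets, contractile, epithelial and ribosome biogenesis genes and of risen fatty acid genes moved by less than 1.5 times when 1 line was left out, while many counts of 1 or 2 moved by more. Centring each array on its median gave 1910 higher and 2950 lower, against 2274 and 2490. The count of different EG and ES responses, 287, was less stable: 123 to 325 when 1 line was left out and 179 with sets of array identifiers in place of batch. The cause was not tested. With the replicate number as a block 4471 genes were called and 82 for the difference of responses. The numbers do not pair the EG lines. Same-numbered ES lines match in labelled sex and batch, and whether they pair was not tested. The sign of genes not called turned for Sox2 with a sex term for each culture (−0.0501) and when 1 line was left out (−0.0118 to 0.1114, lowest without EG FCS line 1), and for Klf4 when 1 line was left out (−0.2655 to 0.0264, above 0 without EG 2i line 4 or EG FCS line 4, 0.0076). With 4 lines per culture and unequal sexes, small changes near the threshold are the least certain, and levels near background understate a fold.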
